A study of Mus musculus with 8 samples.

Results

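The 6 genes described here encode the KMT2 methyltransferases of the mouse, Kmt2a, Kmt2b, Kmt2c, Kmt2d, Setd1a and Setd1b. They were chosen by name from 21938 protein-coding genes and were compared with a list of 6444 genomic sites at which ASH2L had been found by ChIP-seq in mouse cells. ChIP-seq sequences the DNA that comes down with an antibody against a protein, and a site is a stretch where such DNA piles up above a control. A promoter site was a site whose centre lay within 1 kb of any annotated transcription start site (TSS) of a gene, and sites within 3 kb of a TSS or inside the gene body were recorded as well.

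The series held 8 libraries from immortalised mouse embryonic fibroblasts (iMEF), which were 2 ASH2L ChIP libraries and 2 inputs without dTAG treatment, and the same numbers after dTAG for 1 h. Inputs are sheared chromatin sequenced without antibody. In all 8 libraries the cells carried a lentiviral human ASH2L fused at its N-terminus to an FKBP12 degron and an HA tag, while exon 4 of the endogenous Ash2l loci had been excised with tamoxifen-induced recombination. dTAG binds the degron and sends the fusion protein to the proteasome, so the untreated cells are already a rescued knockout line. Clones were grown from single cells, and the paper worked predominantly with the clone NG3. The sample titles name no clone, so they do not tell whether the replicates share one. The labels give the ChIP antibody as Ash2l, whereas the methods speak of antibodies against the HA tag. The libraries of each group are numbered R1 and R2.

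The list gives the chromosome, start and end of each site and no height, score or p-value. It joins the sites of all samples, so it does not tell which library, treatment or replicate a site came from. Values per sample, a fold change after dTAG and a test between the groups therefore cannot be drawn from this list for the 6 genes, and the sites changed by dTAG were not analysed here. The list does not give the read depth behind a site. What can be read from it is where ASH2L was called, how wide the listed site was, and where no site was listed. A width is that of an entry in the joined list, not of a call in a single library.

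KMT2 enzymes place methyl groups on lysine 4 of histone H3 (H3K4) through a catalytic SET domain. Each works in a complex with a core of WDR5, RBBP5, ASH2L and DPY30, and ASH2L with RBBP5 raises the low activity of the SET domain. SETD1A and SETD1B are responsible for much of the trimethylation at active promoters, KMT2A and KMT2B act at subsets of promoters that include developmental genes, and KMT2C and KMT2D are best known for monomethylation at enhancers. ASH2L sites at these genes are thus sites of a core subunit at the genes of its own catalytic partners.

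ASH2L sites were listed at the promoters of 5 of the 6 genes, Kmt2a, Kmt2c, Kmt2d, Setd1a and Setd1b, and Kmt2b had none. Of all protein-coding genes, 14.0% had a promoter site (95% Wilson interval 13.6 to 14.5%, counting error only). All 6 members had a CpG island no farther than 1 kb from a start, as had 73.4% of all genes, and among genes with such an island 19.0% had a promoter site (18.4 to 19.6%). Setd1b had 2 sites and the other 4 genes had 1 each, which makes 6 sites in all. Of the genes with a promoter site, 14.8% had at least 2. Widening the window to 3 kb, which took in 15.4% of all genes, added no site and no member. Narrowing it to 500 bp, which left 12.5% of all genes, took out Kmt2c and Kmt2d and left 3 members. Inside the gene bodies, 3 sites were centred, at Kmt2c, Setd1a and Setd1b, and each of these was a promoter site, so no member had a site deeper in its body. A site centred in the body was found in 15.8% of all genes, and one in the body farther than 1 kb from the gene's own TSSs in 5.84%.

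Sequences are shown for stretches that can be set against each other without entering annotated untranslated exons of the member. For Kmt2a this is the part of the RefSeq promoter that lies upstream of every annotated start and inside the ASH2L site. For Kmt2c the matching upstream part, which lies outside the ASH2L site, stands next to the 300 bases at the centre of the site, and for Setd1a the stretch is the longer of the intronic parts of its site. All were read from RefSeq's GRCm38.p6, the build called mm10, and are written 5′ to 3′ on the strand of the gene, with CpG dinucleotides in capitals. Of the 6 members, 4 were matched in the RefSeq promoter table. Kmt2b and Setd1b were not matched.
Kmt2a upstream, chr9:44881353-44881539, minus strand: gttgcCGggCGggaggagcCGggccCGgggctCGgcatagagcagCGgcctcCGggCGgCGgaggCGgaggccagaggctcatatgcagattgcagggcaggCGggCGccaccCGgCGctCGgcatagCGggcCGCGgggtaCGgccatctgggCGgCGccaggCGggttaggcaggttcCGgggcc
Kmt2c upstream, chr5:25498856-25499033, minus strand: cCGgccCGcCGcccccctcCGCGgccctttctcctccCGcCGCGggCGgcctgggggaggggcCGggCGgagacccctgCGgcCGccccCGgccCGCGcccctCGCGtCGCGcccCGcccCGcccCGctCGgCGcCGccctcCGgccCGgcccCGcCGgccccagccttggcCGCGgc
Kmt2c site, chr5:25497767-25498066, minus strand: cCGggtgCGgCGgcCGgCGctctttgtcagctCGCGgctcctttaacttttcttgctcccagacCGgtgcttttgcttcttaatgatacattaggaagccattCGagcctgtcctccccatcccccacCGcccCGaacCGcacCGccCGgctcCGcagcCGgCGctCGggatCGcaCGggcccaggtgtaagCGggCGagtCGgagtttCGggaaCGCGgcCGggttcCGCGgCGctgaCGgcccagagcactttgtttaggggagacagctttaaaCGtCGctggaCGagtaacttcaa
Setd1a site, chr7:127777514-127777694, plus strand: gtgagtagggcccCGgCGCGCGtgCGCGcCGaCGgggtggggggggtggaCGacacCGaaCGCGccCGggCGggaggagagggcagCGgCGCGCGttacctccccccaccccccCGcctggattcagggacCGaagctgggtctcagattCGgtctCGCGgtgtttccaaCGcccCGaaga

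The 187 bases of Kmt2a held 23 CpGs, or 12.3 per 100 bp. The 300 bases of the Kmt2c site held 34 (11.3 per 100 bp), and the 178 bases upstream of Kmt2c, where no site was listed, held 32 (18.0 per 100 bp). The densest of the 4 stretches was therefore the one outside a listed site. The 181 intronic bases of Setd1a held 25 CpGs, or 13.8 per 100 bp. For scale, the 250 bases upstream of the starts in all 32851 RefSeq promoters had a median of 2.40 CpGs per 100 bp, with quartiles of 0.80 and 6.40. The nearer comparison is the median of all promoter sites, 9.27 per 100 bp, which the 4 stretches exceeded by less. That median is over whole sites, while the stretches are parts of sites or, upstream of Kmt2c, outside one. The sites of Kmt2d (8.38 per 100 bp) and upstream at Setd1b (7.17) were below it and have no stretch shown.

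**Figure D1:**
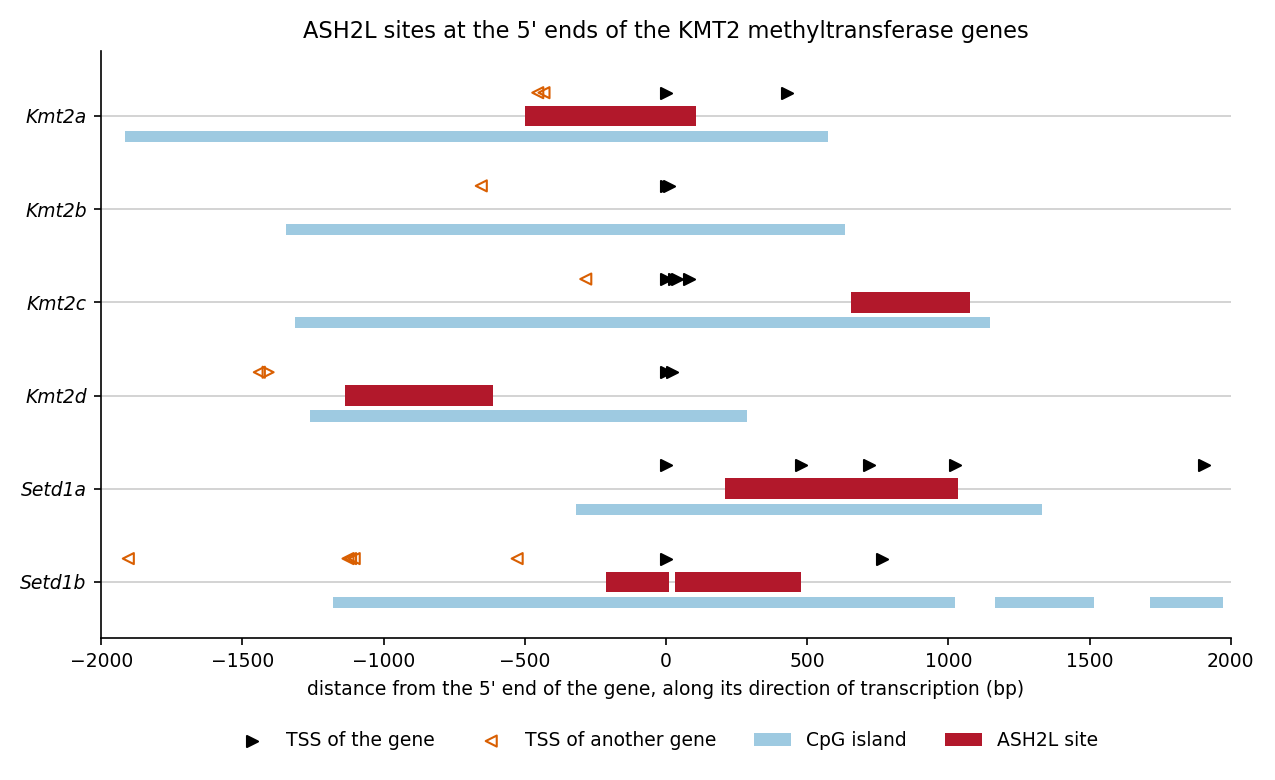
Map of the 5′ ends of the 6 genes, with the distance from the 5′ end of each gene in bp along its direction of transcription on the horizontal axis. Red boxes are ASH2L sites, blue bars CpG islands, filled triangles TSSs of the gene and open triangles TSSs of other genes, pointing in their direction of transcription. Sites cover the gene start at Kmt2a and Setd1b, lie on later starts at Setd1a, downstream of the starts at Kmt2c and upstream of them at Kmt2d.

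Setd1a and Setd1b encode the catalytic subunits of the SET1 complexes, which are brought to CpG-rich promoters with the help of CXXC1. Setd1a (ENSMUSG00000042308.14) lies on the plus strand of chromosome 7 from 127776670 to 127800122, spans 23.5 kb and has 5 TSSs in 6 transcripts. Its site ran from 127776879 to 127777702 and was 824 bp wide, the widest of the 6. The 3377 promoter sites had a median width of 304 bp, with quartiles of 230 and 423 bp, so this site was far above the upper quartile.

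By GENCODE, the Setd1a site did not sit on the 5′ end of the gene but on later starts. Its centre was 620 bp downstream of the gene start and 99 bp upstream of the nearest TSS, and 3 of the 5 TSSs were inside it. RefSeq gives the gene a single start, at 127777389, and by that annotation the site covered it. Of its bases, 602 were in untranslated exons and 222 in introns. No other gene started on the opposite strand in the 1 kb upstream, and the nearest start of any other gene was 7475 bp from the centre, at Orai3. The Setd1a site was thus the most isolated of the 6 from other genes' starts.

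Setd1b (ENSMUSG00000038384.16), on the plus strand of chromosome 5 from 123142193 to 123168629 (26.4 kb), was the member with 2 sites. The first, 123141980 to 123142202, was 223 bp wide and centred 102 bp upstream of the gene start, which it contained near its downstream edge. Just downstream came the second, from 123142224 to 123142669, 446 bp wide and centred 253 bp downstream of the same start. They were 21 bp apart, and together they spanned 690 bp. Of 6407 pairs of adjacent sites in the whole list, 22 (0.343%) were as close or closer, against a median gap of 151 kb.

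The 2 sites of Setd1b differed in width and in sequence. The upstream site was among the narrower promoter sites, at the 21.9 percentile of width, and the downstream site was at the 78.1 percentile. The upstream site held 16 CpGs (7.17 per 100 bp, GC 69.1%) and the downstream site 61 (13.7 per 100 bp, GC 79.8%), the highest GC content of the 6. The upstream site was mostly outside the gene (213 bp, with 10 bp in the untranslated first exon), while the downstream site was split between that exon (231 bp) and intron 1 (215 bp). RefSeq adds starts at 123142040 and 123142179, both inside the upstream site, and relative to the first of these the upstream site was centred 51 bp downstream.

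Kmt2a and Kmt2b encode closely related proteins, whose complexes hold MENIN in addition to the core. Kmt2a, the gene broken in MLL-rearranged leukaemias (ENSMUSG00000002028.13), lies on the minus strand of chromosome 9 from 44803355 to 44881296, spans 77.9 kb and has 36 exons in its longest annotated transcript. Its site, 44881191 to 44881795, was 605 bp wide (89.1 percentile of promoter sites) and contained the gene start. The centre was 197 bp upstream of that start, so most of the site (499 bp) was outside the gene and 106 bp were in exon 1, of which 84 bp were coding.

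The Kmt2a site also contained 2 starts of AC061963.1, an antisense RNA gene read in the other direction, the nearer at 44881728, 432 bp upstream of the Kmt2a start. Kmt2a was the only member whose start and that of a divergent partner were inside the same site. With RefSeq starts, of which 4 are annotated from 44881289 to 44881352 and all lie inside the site, the centre was 141 bp upstream of the nearest.

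Kmt2b (ENSMUSG00000006307.16), on the minus strand of chromosome 7 from 30568858 to 30588726 (19.9 kb, 8 TSSs), was the member without a site. None was listed within 3 kb of any of its TSSs or in its body. The nearest site, 30674859 to 30675138 (280 bp), was 86.3 kb upstream of the gene, and the nearest gene to that site was Pmis2, whose start was 3393 bp from its centre. Among the 13040 genes that have a CpG island and no promoter site, the distance to the nearest site had a median of 96.3 kb, and Kmt2b was at the 46.7 percentile.

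The start of Kmt2b was rich in CpGs although no site was listed there. The 500 bp around its gene start held 68 CpGs at a GC content of 80.2%, against a median of 42 CpGs (quartiles 30 and 54) in the 3078 genes with a promoter site and 31 (quartiles 16 and 45) in island genes without one. Kmt2b was at the 92.0 percentile of the former and the 96.5 percentile of the latter. Its island was 1981 bp long, from 1347 bp upstream to 633 bp downstream of the gene start. With neither a height nor a threshold in the list, a weak ASH2L signal at Kmt2b could not be told apart from none.

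The next site downstream of the Kmt2b start was 394 kb away, at Capns1. Between the sites on either side, 34 other protein-coding genes start, 28 of them with a CpG island. Of these 34, 33 had no promoter site (27 of the 28), which largely follows from how the stretch was drawn, since listed sites bound it. On chromosome 7 as a whole, 7.17% of protein-coding genes had a promoter site (11.6% of those with an island), lower than on the other chromosomes that carry members, where the shares were 15.2% on chromosome 9, 16.5% on chromosome 5 and 18.1% on chromosome 15. Setd1a, on the same chromosome, had its site.

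**Figure D2:**
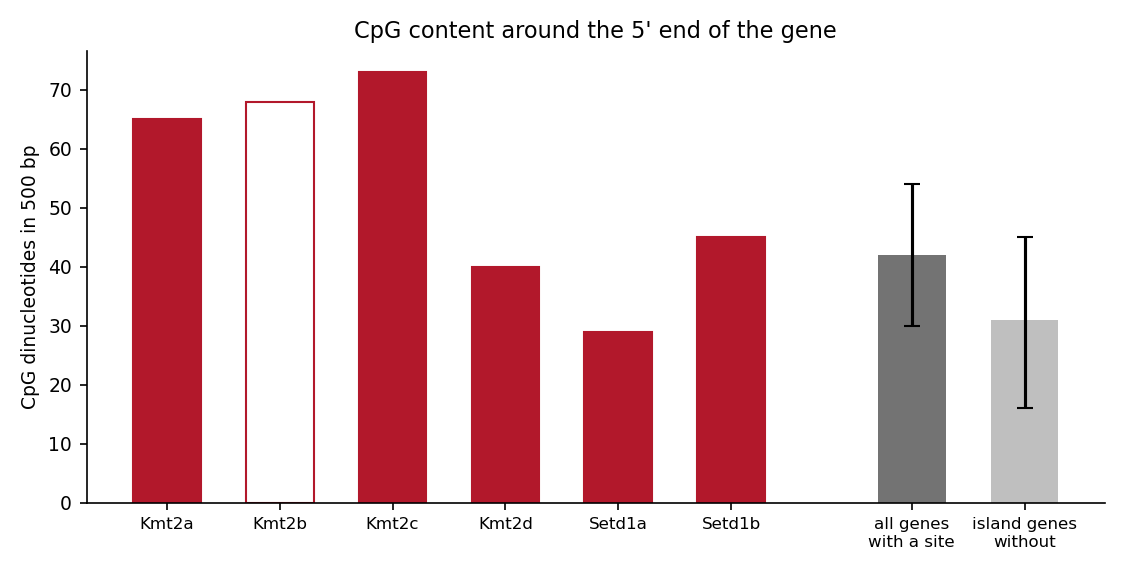
CpG dinucleotides in the 500 bp centred on the 5′ end of each gene, with filled bars for members with an ASH2L promoter site and an open bar for Kmt2b, which had none. Grey bars are the medians of all 3078 genes with a promoter site and of island genes without one, and their whiskers are the quartiles. Kmt2b, with 68 CpGs, stands above Kmt2a with 65 and below Kmt2c with 73, while Setd1a, with 29, had a site.

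The same windows held 65 CpGs at Kmt2a, 73 at Kmt2c, 40 at Kmt2d, 29 at Setd1a and 45 at Setd1b. The low count of Setd1a belongs to its 5′ end, and its site, which lies farther downstream, held 102 CpGs (12.4 per 100 bp). The order by CpG content at the gene start did not separate the member without a site from those with one.

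Kmt2c and Kmt2d encode the largest proteins of the family, whose complexes also hold the H3K27 demethylase KDM6A, PAXIP1 and NCOA6. Their sites were the farthest from a start. Kmt2c (ENSMUSG00000038056.15), on the minus strand of chromosome 5 from 25271798 to 25498783, is the longest member at 227 kb, with up to 59 exons and 8 TSSs. Its site, 25497706 to 25498129, was 424 bp wide and lay wholly in intron 1, starting 260 bp beyond the end of exon 1 in an intron of 54481 bp. The centre was 866 bp downstream of the gene start and 785 bp downstream of the nearest TSS, and 97.1% of genes with a promoter site had theirs as near or nearer.

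At Kmt2c the site therefore lay off the starts but inside the island, which reached from 1314 bp upstream to 1146 bp downstream of the gene start. The start of the lincRNA gene 4831440E17Rik, 284 bp upstream of the Kmt2c start on the other strand, was 1150 bp from the site centre. Neither it nor any Kmt2c start was inside the site. The intronic site had the highest ratio of observed to expected CpG of the 6, at 1.05 (87.7 percentile of promoter sites), with a GC content of 63.7%, the lowest.

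Kmt2d (ENSMUSG00000048154.17), on the minus strand of chromosome 15 from 98831669 to 98871204 (39.5 kb, up to 55 exons, 5 TSSs), had its site upstream. The site, 98871818 to 98872342, was 525 bp wide (84.7 percentile), and its downstream edge was 614 bp before the gene start. Its centre was 876 bp upstream, farther than or as far as 98.5% of the genes with a promoter site. No base of it was in the gene as GENCODE draws it. RefSeq places further starts at 98871608, 472 bp from the centre, and at 98874077, which is 1997 bp upstream of the centre and places the site inside the transcribed region of that model.

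With GENCODE starts, the Kmt2d site was nearer to starts of other genes than to its own, and with the RefSeq start at 98871608, 472 bp from the centre, it was nearer to its own. Gm49437, a gene of the annotation type TEC on the same strand, started 533 bp from the centre, and the lincRNA gene 5730414N17Rik, read in the other direction, 564 bp from it. Neither start was inside the site. By GENCODE, Kmt2d was the single member of the 5 for which a start of another gene was closer, as was the case for 16.4% of all genes with a promoter site, and the RefSeq start reverses this. The list does not tell to which of these genes the site belongs.

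Across the 5 genes with a site, an own TSS was inside a site at Kmt2a, Setd1a and Setd1b, which is 3 of 5, and the share over all genes with a promoter site was 60.1%. The nearest offsets ran from 876 bp upstream to 785 bp downstream, with a median distance of 197 bp, against 123 bp over all genes with a promoter site. At Kmt2a, Kmt2d, Setd1a and Setd1b the nearest centre was upstream of the TSS and at Kmt2c downstream, whereas 61.6% of all genes with a promoter site had it downstream. Of the 4 upstream positions, that of Setd1a turned to 620 bp downstream when measured from the 5′ end of the gene, and that of Setd1b to 51 bp downstream with RefSeq TSSs. For 2 of the 5 genes, Kmt2c and Kmt2d, the distance was over 500 bp, as it was for 10.7% of all genes with a site, and with RefSeq TSSs Kmt2d, at 472 bp, no longer counted. With 5 genes these shares are a description.

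**Figure D3:**
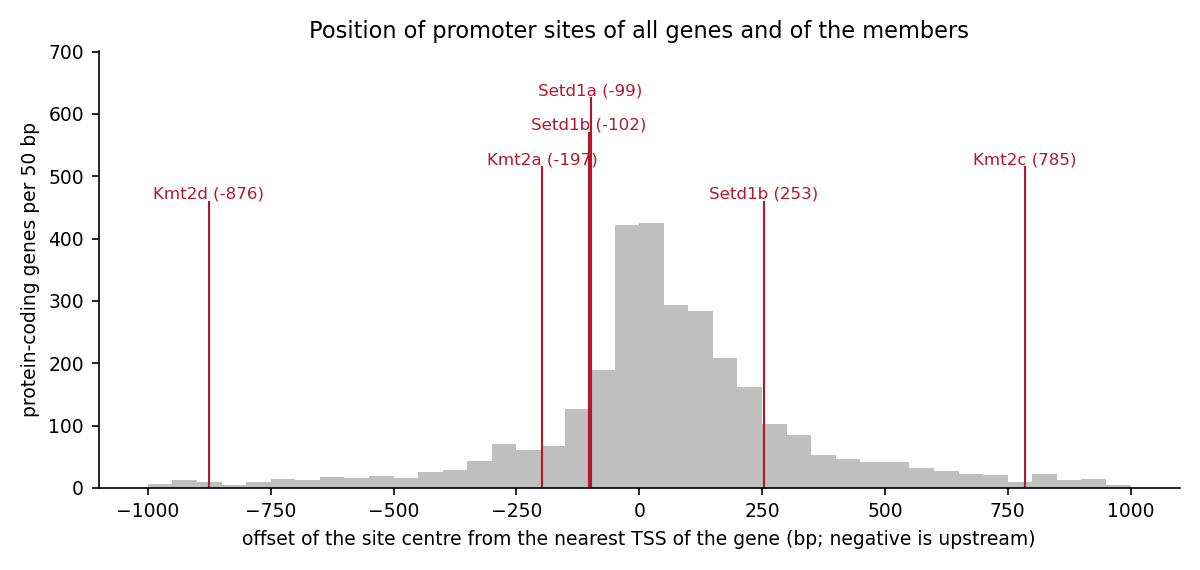
Offset of the centre of the nearest site from the nearest TSS of the gene, in bp and negative upstream, for all 3078 protein-coding genes with a promoter site (grey bars, genes per 50 bp). Red lines mark the 6 sites of the members, which range from 876 bp upstream at Kmt2d to 785 bp downstream at Kmt2c, with both sites of Setd1b drawn.

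In width, 5 of the 6 sites exceeded the median promoter site, and the upstream site of Setd1b did not. Setd1a with 824 bp ranked 227 from the widest among all 6444 sites, Kmt2a with 605 bp ranked 469, Kmt2d with 525 bp 660, the downstream site of Setd1b 946 and Kmt2c 1070. The upstream site of Setd1b ranked 4329. The list gives no signal with which to set width against height.

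**Figure D4:**
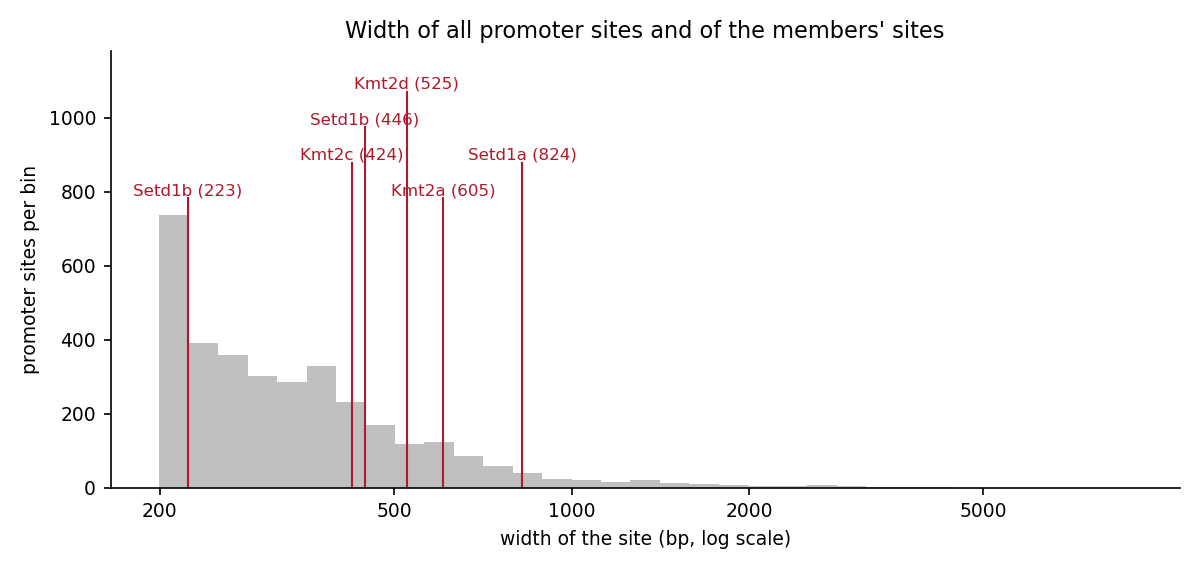
Width in bp, on a log scale, of all 3377 promoter sites (grey bars) and of the 6 sites at the members (red lines). The sites of Kmt2a, Kmt2c, Kmt2d, Setd1a and the downstream site of Setd1b lie between 424 and 824 bp, above the median of 304 bp, and the upstream site of Setd1b is 223 bp wide.

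All 6 sites lay wholly inside CpG islands, as did 72.0% of all promoter sites. Islands were made by joining windows of 200 bp, each with over 50% GC and a ratio of observed to expected CpG over 0.6, so a joined island as a whole can fall below these limits. The islands at the gene starts were 2489 bp long at Kmt2a, 1981 bp at Kmt2b, 2461 bp at Kmt2c, 1548 bp at Kmt2d, 1651 bp at Setd1a and 2206 bp at Setd1b. The ASH2L sites covered 17.2% of the island at Kmt2c, 24.3% at Kmt2a, 30.3% at Setd1b with both sites, 33.9% at Kmt2d and 49.9% at Setd1a. At every member with a site, at least 50% of the island was free of a call.

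Within the sites, CpG density ran from 7.17 per 100 bp in the upstream site of Setd1b to 13.7 in its downstream site. Kmt2d with 8.38 was below the median of all promoter sites, 9.27, as was the former, and Kmt2c with 10.6, Kmt2a with 11.6 and Setd1a with 12.4 were above it. GC content was 75.7% at Kmt2a, 72.3% at Setd1a and 67.0% at Kmt2d, and the median of promoter sites was 65.8%. CpG content thus varied among the members over much of the range of promoter sites.

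A divergent partner, that is an antisense TSS of another gene within 1 kb upstream of a TSS, was annotated at 4 of the 6 members, and at 18.3% of all protein-coding genes. Within 500 bp it was 2 of the 6, Kmt2a and Kmt2c, and 16.3% of all genes. The partners were AC061963.1 at Kmt2a, the microRNA gene Mir3569 at Kmt2b (654 bp), 4831440E17Rik at Kmt2c and the lincRNA gene AI480526 at Setd1b (527 bp). None of the 4 encodes a protein, so 0 of the 6 members had a protein-coding partner within 1 kb, and with 11.0% of all genes having one this does not set the members apart. The AI480526 start was 425 bp from the centre of the upstream Setd1b site and outside it. Kmt2d and Setd1a had no partner within 1 kb. Kmt2b, which has a partner, had no site, and Setd1a, which has none, had the widest.

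Short consensus sequences of promoter-binding factors were searched on both strands of the 6 sites, each with its exact letters. They were ETS (CCGGAAGT), YY1 (AANATGGCG), NRF1 (GCGCANGCG), NFY (CCAATNNG), SP/KLF (CCCCGCCCC), CRE (TGACGTCA) and the E-box (CACGTG). There were 4 matches in all, no 2 of them overlapped, and none lay in the 200 bp centred on a site. Windows of 200 bp centred on all promoter sites held a given motif in 0.888% (CRE) to 5.33% (ETS) of cases. Finding none in 6 such windows therefore does not set the members apart. The Kmt2a site held a YY1 match 23 bp downstream of the gene start and an SP/KLF match 30 bp upstream of it, the Kmt2d site an E-box 1126 bp upstream, and the Setd1a site an NRF1 match 866 bp downstream, in the intronic stretch shown above.

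Windows of the same width centred on all promoter sites held YY1 letters in 9.45%, SP/KLF in 18.2%, the E-box in 9.86% and NRF1 in 15.0% of cases, for the widths of the sites of Kmt2a, Kmt2d and Setd1a. The Kmt2c site and both sites of Setd1b held none of the 7 motifs, and ETS, NFY and CRE letters were found in no member site. At the widths of the member sites, ETS letters were present in 5.74 to 11.1% of windows at all promoter sites, NFY in 2.99 to 18.1% and CRE in 1.01 to 2.87%, so finding none in 6 sites does not set the members apart. The 178 bases upstream of Kmt2c shown above, outside the site, held 2 SP/KLF matches, which overlap each other. Of windows of that length centred on promoter sites, 4.47% held the letters. This is not a like comparison, since the stretch lies outside a site and has a GC content of 89.9%. A match describes letters and does not show that a factor bound.

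Other genes of the H3K4 methylation machinery were taken as lists, by name. All 16 genes for other subunits of these complexes had a CpG island. Of the 16, 8 had a promoter site, beside 14.0% of all genes and 19.0% of those with an island. Among the core subunits these were Rbbp5 (site centred 61 bp upstream of its nearest TSS), Wdr5 (196 bp downstream) and Ash2l itself (113 bp upstream), and Dpy30 had none within 3 kb. The remaining 5 were Psip1 (61 bp downstream), which encodes the chromatin tether of the KMT2A complex, Paxip1 (165 bp downstream) and Kdm6a (583 bp downstream) of the KMT2C and KMT2D complexes, and Bod1l (54 bp upstream) and Bod1 (42 bp upstream). Men1, Hcfc1, Hcfc2, Cxxc1, Wdr82, Ncoa6 and Pagr1a had no promoter site.

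Of 6 H3K4 demethylase genes, whose products remove the mark, 3 had a promoter site, beside 14.0% of all genes and 19.0% of those with an island. They were Kdm1a (43 bp downstream), Kdm5a (139 bp downstream) and Kdm5c (116 bp downstream). Kdm1b, Kdm5b and Kdm5d had none. Kdm5d lies on chromosome Y, and whether these cells carry it was not tested. Kdm1a and Kdm5a had 2 sites each, as Setd1b did. The median distance of the nearest site from a TSS was 87 bp in the subunits and 116 bp in the demethylases, and 197 bp in the methyltransferases, each over the genes with a promoter site, which leaves out Kmt2b. Among the nearest sites in these 2 lists, that of Kdm6a at 583 bp was the farthest from a GENCODE start. The nearest sites of Kmt2c and Kmt2d were farther by the same annotation, though with RefSeq starts that of Kmt2d was 472 bp away. The lists hold 6 to 16 genes, and the order of their shares is a description that changes with the window. At 500 bp the methyltransferases and the demethylases each had 3 of 6, beside 12.5% of all genes.

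**Figure D5:**
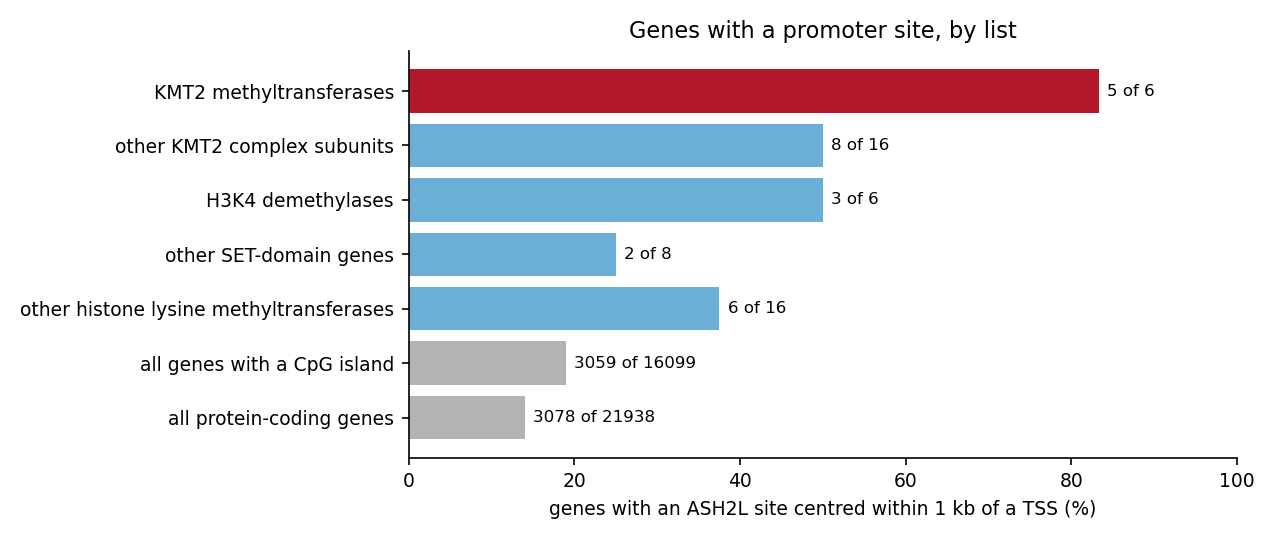
Percent of genes with an ASH2L site centred within 1 kb of a TSS, for the 6 KMT2 methyltransferase genes (red), 4 lists of related genes (blue) and all genes with a CpG island or all protein-coding genes (grey), with the counts written beside the bars. In this 1 kb window the members have the highest share with 5 of 6, the other subunits and demethylases have 8 of 16 and 3 of 6, and all genes have 3078 of 21938.

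The surroundings of the members differed in how far the next site was. The nearest other site upstream of the gene start was 39.7 kb away at Kmt2a, where it lay at Atp5l, 62.7 kb at Kmt2d, 153 kb at Setd1b, where it lay 102 bp from a start of Kdm2b, 161 kb at Setd1a and 204 kb at Kmt2c. Downstream it was 92.1 kb away at Kmt2d, 99.1 kb at Setd1a, 108 kb at Kmt2a, 578 kb at Setd1b and 812 kb at Kmt2c. The stretch between the neighbouring sites on either side, member sites aside, was longest at Kmt2c with 1016 kb and 731 kb at Setd1b, and shortest at Kmt2a with 148 kb.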

How the data were processed

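Per the labels and the study's methods, the authors used Trim Galore for trimming, BWA for alignment to mm10, SAMtools for filtering and MACS2 for narrow peaks. Versions are not given in the sources used here. Replicates were merged, and the study's methods do not say whether peaks were called after that. The deposited table used here lists sites joined over all samples and holds positions in base pairs, with no count, signal or p-value, and a table of sites changed after dTAG was not analysed here. The peak threshold is not given in the sources used here, and the table does not give the depth behind a site. The labels name the OneDay ChIP kit and the methods another kit.

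Starts were read as counted from 0 and written counted from 1. The 6428 sites on the 21 assembled chromosomes were set against GENCODE M21 (GRCm38, the same build), with a site placed by its centre. CpG islands were joined windows of 200 bp in the RefSeq GRCm38.p6 sequence, with GC over 50% and observed to expected CpG over 0.6. Motifs were matched letter by letter on both strands. No test was run: the list holds no replicates, and the members are 6 named genes whose counts stand beside those over all protein-coding genes. All 6 members, their divergent partners, the gene nearest to Kmt2b's nearest site and listed genes with a promoter site are named. Listed genes without a site, genes beside neighbouring sites and the other starts near the Kmt2d and Setd1a sites were named after their values were seen. The members, lists and motifs were chosen with earlier results of these data known. Windows, sets of TSSs, placement by any base, a stricter island definition and RefSeq TSSs were tried as alternatives. The scripts were tested on simulated data. Python 3.11.15, NumPy 2.4.6, pandas 2.3.3, SciPy 1.17.1, pysam 0.24.0 and matplotlib 3.10.9 were used.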

Additional observations from a re-analysis of the deposited data

How the results depend on the processing

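Of 43 alternatives over 12 results, 27 changed the value little or not at all, 14 moved it and 2 turned its direction. With a window of 500 bp, 3 members had a promoter site, as Kmt2c and Kmt2d were lost, and the count was 5 under every other alternative tried. The share of all genes was 12.5% at 500 bp, 15.4% at 3 kb and 12.3% from the 5′ end of the gene alone, against 14.0%. From the 5′ end alone the Setd1a site was centred 620 bp downstream instead of 99 bp upstream. With RefSeq TSSs, an alternative chosen after seeing the data, the Setd1b site was centred 51 bp downstream instead of 102 bp upstream. Body sites numbered 5 when any base counted, and 0 when promoter sites were left out. Members with a divergent partner numbered 2 within 500 bp and 0 with protein-coding partners alone, where 16.3% and 11.0% of all genes had one. In windows of 200 bp centred on the sites, 0 of the 4 motif matches were found. Such windows at all promoter sites held a given motif in 0.888 to 5.33% of cases. No paired analysis was possible because the list joins all samples and carries no replicate.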

Other observations

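Outside the H3K4 machinery, 6 of 16 genes for methyltransferases of other histone lysines had a promoter site, all 16 having a CpG island, beside 14.0% of all genes and 19.0% of those with an island. They were the H3K36 methyltransferase genes Nsd2 (nearest site centred 318 bp downstream of a TSS), Nsd3 (228 bp downstream) and Setd2 (516 bp downstream), the H4K20 methyltransferase genes Kmt5a (103 bp upstream) and Kmt5b (9 bp upstream), and the H3K79 methyltransferase gene Dot1l (126 bp upstream). The H3K27 methyltransferase genes Ezh1 and Ezh2 and the H3K9 methyltransferase genes Suv39h1, Suv39h2, Setdb1, Setdb2, Ehmt1 and Ehmt2 had none, nor had the H3K36 methyltransferase gene Nsd1 and the H4K20 methyltransferase gene Kmt5c. Among 8 further SET-domain genes, 2 had a promoter site, Kmt2e and Setd5, a share near that of all genes with an island. The site of Kmt2e, which shares the family name but lacks an established H3K4 methyltransferase activity, was 200 bp wide and centred 959 bp downstream of its nearest TSS, farther out than the sites of Kmt2c and Kmt2d. The site of Setd5 was 213 bp wide and centred 288 bp upstream.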
